A study of Mus musculus with 7 samples.

Results

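The transcripts described here encode the heat shock chaperones of the cytosol and of mitochondria, their cochaperones and the heat shock factors Hsf1 and Hsf2. They were chosen by gene symbol, 36 of the 25655 genes in the count table, and all 36 had enough counts to be tested. Poly(A)-selected RNA of whole retina of wildtype C57BL/6 mice was sequenced 2 days after the optic nerve had been crushed, an injury that cuts the axons of retinal ganglion cells. All retinas had received AAV2, an adeno-associated virus used to carry genes into these cells: 3 libraries came from retinas given a vector that overexpresses Tppp3, a gene of a tubulin polymerization-promoting protein, and 3 from retinas given a control vector with a CMV promoter. Both groups were injured, and no uninjured or untreated retina was among the samples. The sources used here do not give the promoter of the Tppp3 vector, the age and sex of the mice or the time of vector delivery.

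Chaperones of the HSP70 family hold unfolded stretches of protein in a cycle of ATP hydrolysis. J proteins bring the clients and start the cycle, and HSP110, BAG and other cochaperones end it. HSP90 takes over later clients with a set of cochaperones, small heat shock proteins hold aggregating proteins, and HSP60 with HSP10 folds proteins inside mitochondria. Some of these genes are expressed in nearly every cell without stress, whereas others are induced when the factor HSF1 binds heat shock elements in their promoters. In the retina, the small heat shock proteins Hspb1 and Cryab are known from glia and from injured ganglion cells. By general knowledge of heat induction, 13 of the 36 members were classed as inducible and 17 as constitutive, and 6 were put in neither class. The constitutive class does not exclude induction by heat. It holds Hspd1 and Hspe1, before whose starts heat shock element letters with 3 units were found.

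The libraries held between 10961443 and 21843892 gene counts, and every Tppp3 AAV2 library was deeper than every control library. Tppp3 itself lay between 18.7 and 28.02 CPM (counts brought to a common library size with TMM factors) in control libraries and between 36.5 and 53.7 in those given the Tppp3 vector. No listed marker of rods, ganglion cells, bipolar and amacrine cells or Müller glia was at 0 in any library. Counts of Y-linked genes differed within each group, with control replicate 1 and Tppp3 replicate 2 male and the other 4 libraries female. Nothing in the labels says whether each library came from another animal, so p-values measure the spread between these libraries. In whole retina, more cells of a type and more RNA per cell cannot be told apart.

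No chaperone transcript passed the test between the groups. In edgeR's quasi-likelihood test, 0 of 36 members were higher and 0 lower at an adjusted p under 0.05, where 0% of all 14750 tested genes were called higher and 0.0136% lower. DESeq2's Wald test called 0 members in either direction, against 0.0147% of all genes higher and 0.0884% lower, and limma's voom called 0 as well. At an unadjusted p under 0.05, 9 members were higher in edgeR, where 3.67% of all tested genes were, and 0 were lower, where 3.55% of all were. DESeq2 put 9 higher and 0 lower at that unadjusted p, against 2.06% and 1.48% of all genes. The 9 in edgeR were Chordc1, Dnajb1, Dnaja1, Dnaja2, St13, Bag3, Hsf2, Dnajb4 and Hspa8. Those in DESeq2 held Hspa1a, Hsph1 and Hsp90aa1 in place of Bag3, Hsf2 and Dnajb4. The groups did not overlap, after Tppp3 AAV2 higher, in 8 members and in 6.92% of all tested genes. They did not overlap in the other direction in 0 members and in 7.02% of all.

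Inducible members stood further above the controls than constitutive members did, by small amounts. The log2 fold change was positive in 11 of the 13 inducible members, with a median of 0.21 and a range from -0.075 to 0.44. It was positive in 13 of the 17 constitutive members, with a median of 0.063 and a range from -0.086 to 0.24, and in 6 of the 6 others, with a median of 0.079. Over all 14750 tested genes it was positive in 50.9% and negative in 49.1%, with a median of 0.0030. No test was made of the difference between the classes. Without Tppp3 replicate 1 the median of the inducible members was 0.082. That of the constitutive members was 0.036 without Tppp3 replicate 1, 0.035 without Tppp3 replicate 3 and 0.034 in a fit that held pigment epithelium marker level as a covariate. The classes overlapped: Hspb1 and Cryab, both inducible, lay below most constitutive members, and Hspa8, a constitutive member, lay above 8 of the 13 inducible members.

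**Figure D1:**
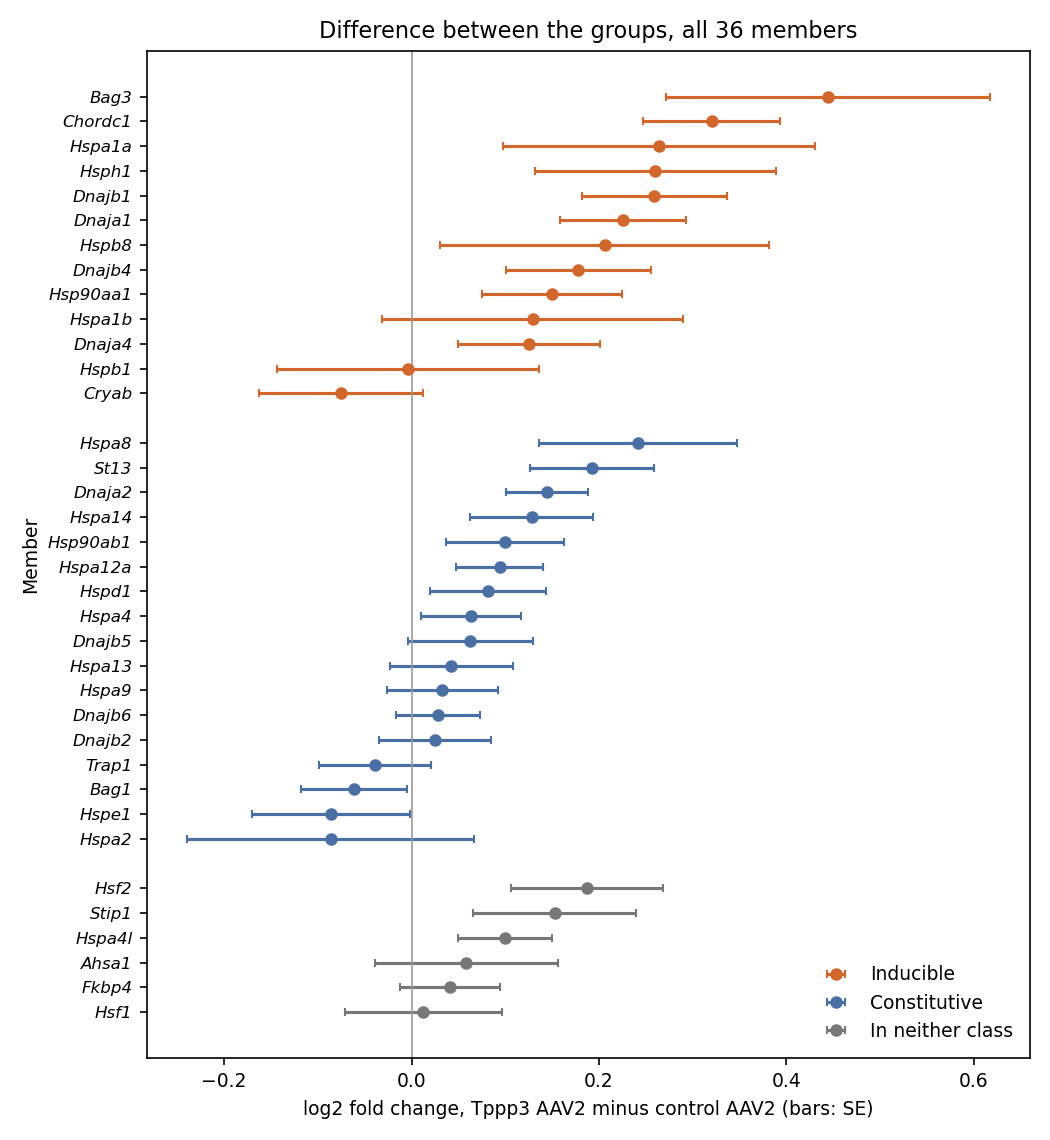
Log2 fold change, Tppp3 AAV2 minus control AAV2, of all 36 members (x axis), sorted within the inducible, constitutive and unclassed members; points are estimates of edgeR's fit and bars their SE. The inducible members reach from -0.075 (Cryab) to 0.44 (Bag3) and the constitutive members from -0.086 (Hspa2) to 0.24 (Hspa8).

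The difference did not come from the 3 Tppp3 AAV2 libraries alike. Of the 36 members, 22 had their highest level in Tppp3 replicate 1, against 17.2% of all tested genes, and among them were 10 of the 13 inducible members. In 20 members, Tppp3 replicates 1 and 3 both lay above every control library, against 13.8% of all. Tppp3 replicate 2 lay within the control range in 18 members, below every control in 8 and above every control in 10. The split over all 14750 tested genes was similar: within that range in 7284, below every control in 3684 and above every control in the rest. The median inducible member lay 0.38 (log2) above the control mean in Tppp3 replicate 1, 0.15 above in replicate 3 and 0.013 above in replicate 2, while the controls lay at -0.043, 0.022 and 0.053. For constitutive members the same medians were 0.103, 0.080 and -0.0086 after Tppp3 AAV2, and -0.021, 0.021 and -0.0065 in the controls. Without Tppp3 replicate 2 the groups did not overlap in these same 20 members, all higher, and in the same 13.8% of all tested genes, by definition. In the edgeR fit without that library 17 members were higher at an unadjusted p under 0.05, against 4.84% of all genes. That count was 5 without Tppp3 replicate 1, without Tppp3 replicate 3 or without control replicate 2, against 2.68%, 2.46% and 2.56% of all genes.

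Other measures moved with these libraries. Pigment epithelium markers summed to 228.1 CPM in control replicate 1 and to 243.1 and 230.02 in Tppp3 replicates 1 and 3, but to no more than 62.1 in the other 3 libraries. Of that list, 10 of 12 genes were tested, all 10 with a positive fold change, and none was at 0 in every library. Control replicate 1 had the lowest level of the 6 libraries in 12 of the 36 members, a share that was not counted over all tested genes. This is 1 library, and a link between its chaperone levels and these markers was not tested. Reactive glia genes summed to 534.02 to 1117 CPM in the controls, and to 821.8, 1328 and 541.1 in Tppp3 replicates 1, 2 and 3. Lens genes summed to 3.16 to 9.34 CPM in the controls and to 29.8 in Tppp3 replicate 1, against 4.74 and 6.84 in replicates 2 and 3. Rod markers were lowest in Tppp3 replicate 2, at 52640 CPM against 60326 to 68252 in the other 5 libraries. That library was also highest in Müller glia markers, at 7027 CPM against 5422 to 6287, and in markers of vessels, at 603 against 438 to 501. Cornea epithelium markers summed to 114 to 137 CPM in the controls and 80.4 to 102 in the Tppp3 libraries, and 1 of the 5 tested genes of that list was called lower. Immediate-early genes, which include quick responders to handling of tissue, summed to 264.05 to 342.1 CPM in the controls and 278.7 to 365 after Tppp3 AAV2. Tppp3 replicate 2, within the control range in 18 of the 36 members, was also the male library of its group. With sex as a covariate the inducible median was 0.21. Each group held 1 male library, so that fit could move the group difference only little and does not test sex as a source of the replicate's levels. The part of sex and of these measures in the chaperone levels was not tested, beyond the fit that held pigment epithelium markers as a covariate.

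**Figure D2:**
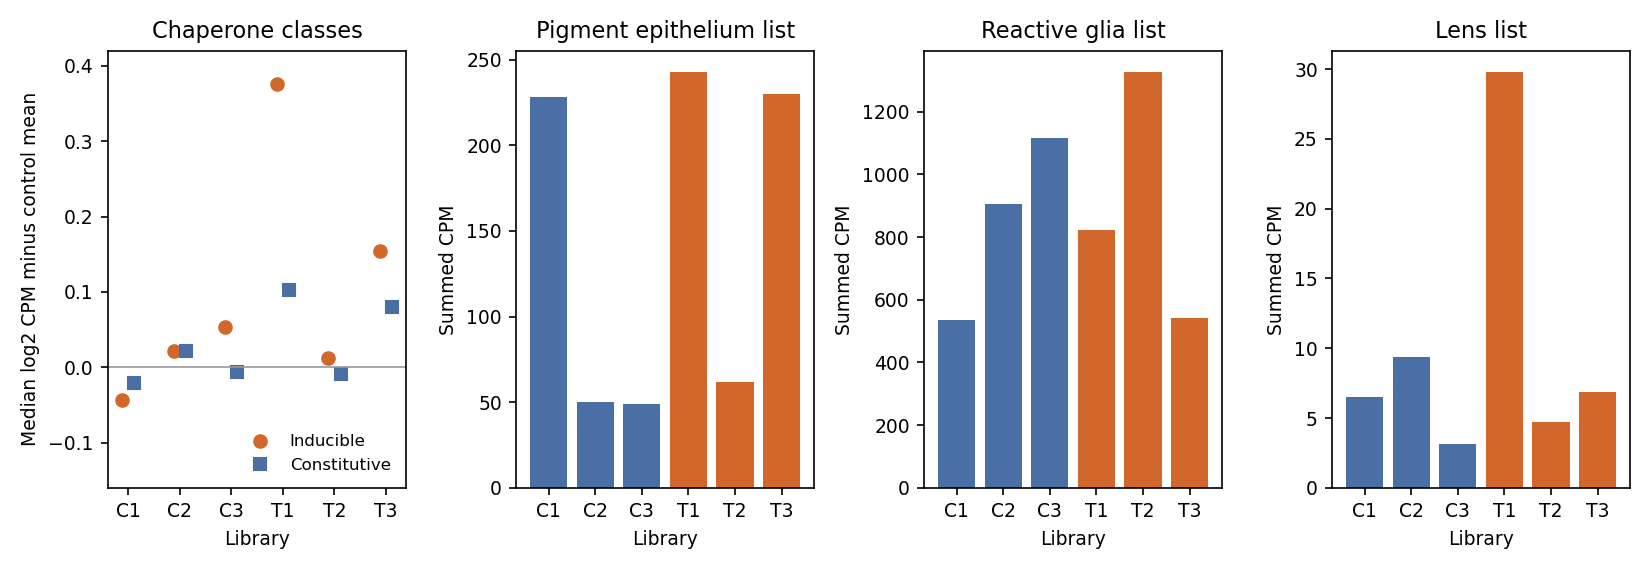
In the left panel points give the median over the inducible and over the constitutive members of log2 CPM minus the control mean, for control AAV2 replicates C1 to C3 and Tppp3 AAV2 replicates T1 to T3; in the other panels bars give CPM summed over the pigment epithelium, reactive glia and lens lists, blue for control and orange for Tppp3 libraries. T1 is highest for the inducible members (0.38) and for the lens list (29.8), T2 sits with the controls in the left panel, and the pigment epithelium list is high in C1, T1 and T3.

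The inducible HSP70 genes Hspa1a and Hspa1b are near-identical neighbours whose product is the classical stress-induced chaperone. Their promoters, shown here because both hold a pair of heat shock element units, were alike in 98.8% of the 250 bases before the start (RefSeq, GRCm38.p6). Printed 5′ to 3′ are the last 200 bases before the start of Hspa1a, chr17:34972157-34972356 on the minus strand, and of Hspa1b, chr17:34959239-34959438 on the minus strand, with the heat shock element letters GAANNTTC in capitals.
Hspa1a: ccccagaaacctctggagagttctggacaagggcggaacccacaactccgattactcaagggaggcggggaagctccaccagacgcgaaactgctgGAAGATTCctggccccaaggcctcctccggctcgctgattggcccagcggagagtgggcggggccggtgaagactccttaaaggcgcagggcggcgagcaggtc
Hspa1b: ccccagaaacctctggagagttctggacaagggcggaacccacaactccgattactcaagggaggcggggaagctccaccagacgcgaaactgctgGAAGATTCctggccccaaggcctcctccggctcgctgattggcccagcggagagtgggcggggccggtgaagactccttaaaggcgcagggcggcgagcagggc

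Hspa1a held 82.5, 83.0 and 79.8 CPM in the control libraries and 124, 81.6 and 89.2 after Tppp3 AAV2. Tppp3 replicate 1 stood furthest above the controls and replicate 3 just above them, while replicate 2 lay inside the control range, so the groups overlapped. The log2 fold change of Hspa1a was 0.26 ± 0.17 (SE; edgeR adjusted p = 0.796), 0.058 without Tppp3 replicate 1 and 0.16 with pigment epithelium markers held as a covariate. Hspa1b held 76.2, 74.3 and 65.0 CPM in the controls and 98.0, 67.7 and 70.3 after Tppp3 AAV2, so that Tppp3 replicate 1 was the one library above every control. Its log2 fold change was 0.13 ± 0.16 (edgeR adjusted p = 0.906) and changed sign to -0.064 without that library. It was 0.063 without control replicate 3, 0.23 without Tppp3 replicate 2, 0.20 without Tppp3 replicate 3 and 0.018 with the pigment epithelium covariate. Reads of the pair are hard to assign: 46.0% of the 150-base windows of the Hspa1a transcript and 40.5% of those of Hspa1b occur in another gene's transcript in GENCODE M21. With the counts of both genes summed the log2 fold change was 0.20.

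Hspa8, the constitutive cytosolic HSP70, was the most abundant member per transcript length. It held 1077, 1239 and 1314 CPM in the controls and 1614, 1246 and 1433 after Tppp3 AAV2. Tppp3 replicates 1 and 3 lay above every control, and replicate 2 lay below the highest control. The log2 fold change was 0.24 ± 0.11 (edgeR unadjusted p = 0.0498, adjusted p = 0.688), 0.14 without Tppp3 replicate 1 and up to 0.33 with other single libraries left out. Part of its count is uncertain, since 56.0% of its windows are shared with other annotated genes. Hsph1 and Hspa4 encode HSP110-type exchange factors, inducible and constitutive. Hsph1 held 76.0, 90.2 and 90.8 CPM in the controls and 116, 85.2 and 107 after Tppp3 AAV2, with a log2 fold change of 0.26 ± 0.13 (edgeR adjusted p = 0.740), and 0.16 without Tppp3 replicate 1. Hspa4 held 269, 277 and 267 CPM in the controls and 291, 264 and 294 after Tppp3 AAV2, with a log2 fold change of 0.063 ± 0.053, which was 0.039, 0.11 and 0.033 without Tppp3 replicates 1, 2 and 3 and 0.034 with the pigment epithelium covariate. In both genes Tppp3 replicates 1 and 3 lay above every control and replicate 2 did not.

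Hspa12a averaged 269 ± 8.63 CPM in control libraries and 287 ± 1.80 in Tppp3 libraries (SD, n = 3 per group), Hspa14 averaged 40.8 ± 1.11 and 44.6 ± 2.03, and Hspa4l averaged 397 ± 6.56 and 425 ± 19.3. In these 3 the groups did not overlap, with log2 fold changes of 0.094, 0.13 and 0.10, and none passed the test at an unadjusted p under 0.05. Without Tppp3 replicate 3 that of Hspa4l was 0.061. Hspa9, the HSP70 of the mitochondrial matrix, averaged 207 ± 12.7 and 212 ± 11.6 CPM. Hspa13 averaged 46.1 ± 2.34 and 47.5 ± 1.66 CPM, and Hspa2, best known from the testis, 6.51 ± 0.618 and 6.13 ± 0.12. The groups overlapped in these last 3.

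Among the HSP90 genes, the inducible Hsp90aa1 held 1436, 1384 and 1407 CPM in the controls and 1697, 1378 and 1615 after Tppp3 AAV2. The spread within the Tppp3 group, an SD of 165 CPM, was wider than that of the controls, 25.9, with replicates 1 and 3 well above every control and replicate 2 just below the lowest. Its log2 fold change was 0.15 ± 0.075 (edgeR adjusted p = 0.728), and it was 0.082 without Tppp3 replicate 1, 0.23 without Tppp3 replicate 2 and 0.080 with the pigment epithelium covariate. The constitutive Hsp90ab1 held 619, 661 and 670.3 CPM in the controls and 753, 650.2 and 687 after Tppp3 AAV2 (log2 fold change 0.10 ± 0.063, edgeR adjusted p = 0.782). Without Tppp3 replicate 1 it was 0.036, and without control replicate 1 it was 0.063. Tppp3 replicates 1 and 3 were again the libraries above every control. Trap1, the mitochondrial HSP90, averaged 63.7 ± 1.54 and 62.1 ± 2.99 CPM (SD, n = 3 per group), with overlapping groups.

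Hspd1 and Hspe1, which encode the mitochondrial chaperonin HSP60 and its lid HSP10, start close together on opposite strands, so that the heat shock element printed for Hspe1 further down lies before one start of each. Hspd1 held 139, 138 and 136 CPM in the controls and 155, 132 and 150.2 after Tppp3 AAV2. Tppp3 replicates 1 and 3 lay above every control and replicate 2 below every control. Hspe1 held 25.2, 28.3 and 29.5 CPM in the controls and 26.4, 24.9 and 26.9 after Tppp3 AAV2, all within or below the control range. Their log2 fold changes were 0.081 ± 0.062 and -0.086 ± 0.084, and neither passed edgeR's test at an unadjusted p under 0.05. That of Hspd1 was 0.030 without Tppp3 replicate 1, 0.15 without Tppp3 replicate 2 and 0.028 with the pigment epithelium covariate. That of Hspe1 was -0.15 without control replicate 1, -0.039 without control replicate 3, -0.055 without Tppp3 replicate 2 and -0.052 with that covariate.

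J proteins and cochaperones, with 8 and 7 of the 36 members, made up 7 of the 9 members with an unadjusted p under 0.05 in edgeR. All 8 J protein genes had positive log2 fold changes, against 50.9% of all tested genes, with a median of 0.14. An unadjusted p under 0.05 was reached by 4 of them, Dnajb1, Dnaja1, Dnaja2 and Dnajb4, where 3.67% of all tested genes were higher. Dnaja1, an inducible partner of Hspa8, held 207, 207 and 194 CPM in the controls and 263, 218 and 231 after Tppp3 AAV2. The groups did not overlap, and Tppp3 replicate 1 was highest. The log2 fold change was 0.23 ± 0.067 (edgeR unadjusted p = 0.00670, adjusted p = 0.639), and 0.14 without that library. Its constitutive relative Dnaja2 held 177, 176 and 175 CPM in the controls and 195, 194 and 195 after Tppp3 AAV2. This was the tightest separation of the set, with SDs of 1.36 and 0.831 CPM and the same level in all 3 Tppp3 libraries, replicate 2 included. Its log2 fold change of 0.14 ± 0.044 (edgeR unadjusted p = 0.00683, adjusted p = 0.639) stayed between 0.14 and 0.15 with single libraries left out.

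Dnajb1, the inducible J protein also called HSP40, held 57.5, 65.0 and 55.8 CPM in the controls and 77.1, 70.7 and 66.04 after Tppp3 AAV2. The groups did not overlap, although control replicate 2 lay just under Tppp3 replicate 3, and the log2 fold change was 0.26 ± 0.078 (edgeR unadjusted p = 0.00641, adjusted p = 0.639). Dnajb4 held 46.0, 51.8 and 55.8 CPM in the controls and 59.6, 54.7 and 59.5 after Tppp3 AAV2, and the groups overlapped (log2 fold change 0.18 ± 0.077, edgeR unadjusted p = 0.0413), and 0.10 without control replicate 1. Dnaja4 held 52.3, 56.7 and 57.6 CPM in the controls and 66.5, 55.3 and 60.1 after Tppp3 AAV2, with replicates 1 and 3 above every control (log2 fold change 0.13 ± 0.076). It was 0.049 without Tppp3 replicate 1, 0.082 without control replicate 1 and 0.19 without Tppp3 replicate 2. Reads of Dnaja4 may be split with the overlapping gene Wdr61, which shares 50.2% of its windows. Dnajb2 averaged 121 ± 3.55 CPM in control libraries and 124 ± 9.20 in Tppp3 libraries (SD, n = 3 per group). Dnajb5 averaged 40.4 ± 1.82 and 42.3 ± 1.47 CPM in the same order, and Dnajb6 140.1 ± 1.81 and 143 ± 1.96. The groups overlapped in all 3.

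Chordc1, which encodes an HSP90 cochaperone with zinc-binding CHORD domains, had the smallest p of all members, rank 23 among all tested genes. It held 54.01, 51.3 and 55.3 CPM in the controls and 73.2, 61.6 and 65.7 after Tppp3 AAV2. All 3 Tppp3 libraries lay above every control. The log2 fold change was 0.32 ± 0.073 (edgeR unadjusted p = 0.00103, adjusted p = 0.639), between 0.25 and 0.38 with single libraries left out, and its adjusted p lay between 0.254 and 0.907 in the alternative fits. Bag3, an HSP70 exchange factor that links small heat shock proteins to autophagy, had the largest fold change of the set at a low level. It held 5.22, 4.98 and 6.51 CPM in the controls, from 59 to 81 counts, and 8.03, 8.16 and 6.46 after Tppp3 AAV2. Tppp3 replicates 1 and 2 lay above every control, and replicate 3 lay just below the highest control. The log2 fold change was 0.44 ± 0.17 (edgeR unadjusted p = 0.0256, adjusted p = 0.661).

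St13, an HSP70-interacting cochaperone also called HIP, held 199, 211 and 202 CPM in the controls and 244, 208 and 247 after Tppp3 AAV2. Tppp3 replicate 2 lay inside the control range, and the log2 fold change was 0.19 ± 0.066 (edgeR unadjusted p = 0.0143, adjusted p = 0.648). Stip1, which bridges HSP70 and HSP90, averaged 151 ± 5.37 and 168 ± 21.6 CPM (SD, n = 3 per group), with a log2 fold change of 0.15, which was 0.068 and 0.25 without Tppp3 replicates 1 and 2 and 0.101 with the pigment epithelium covariate. Ahsa1, the activator of the HSP90 ATPase, averaged 62.7 ± 4.71 and 65.4 ± 8.73 CPM. Fkbp4, an immunophilin that binds HSP90, averaged 223 ± 7.61 and 229 ± 11.9 CPM. Bag1, another HSP70 exchange factor, averaged 64.9 ± 2.05 and 62.2 ± 1.13 CPM. The groups overlapped in these last 4.

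The small heat shock genes showed no common direction. Hspb1 held 8.93, 7.25 and 9.04 CPM in the controls and 8.43, 8.07 and 8.55 after Tppp3 AAV2, every Tppp3 library inside the control range. Its log2 fold change was -0.0039 ± 0.14 (edgeR adjusted p = 0.997), and 36.6% of its windows are shared with Hsp25-ps1 or Gm9817. Cryab held 24.3, 24.8 and 27.1 CPM in the controls and 24.5, 25.6 and 22.2 after Tppp3 AAV2, with overlapping groups (log2 fold change -0.075 ± 0.088). It was -0.028 without control replicate 3, -0.12 without Tppp3 replicate 2, -0.021 without Tppp3 replicate 3 and -0.021 with the pigment epithelium covariate. Cryab is also a lens gene, and Cryaa, the lens partner of its product, stood at 13.7 CPM in Tppp3 replicate 1 and at no more than 1.86 in the other 5 libraries, while Cryab in that replicate lay inside the control range. Hspb8, a partner of Bag3, held 6.72, 7.50 and 9.04 CPM in the controls and 10.6, 8.98 and 7.22 after Tppp3 AAV2, with overlapping groups (log2 fold change 0.21 ± 0.18). It was 0.060 without Tppp3 replicate 1, 0.34 without Tppp3 replicate 3, 0.11 and 0.33 without control replicates 1 and 3, and 0.11 after thinning to the smallest total.

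Hsf1, whose product drives the heat shock response and is controlled mostly after translation, averaged 40.8 ± 3.29 CPM in control libraries and 41.3 ± 3.46 in Tppp3 libraries (SD, n = 3 per group; log2 fold change 0.013 ± 0.084). Hsf2, a related factor that can bind the same elements, held 40.6, 38.4 and 34.6 CPM in the controls and 41.5, 41.2 and 46.7 after Tppp3 AAV2. The groups of Hsf2 did not overlap, by a margin of less than 1 CPM, and its log2 fold change was 0.19 ± 0.081 (edgeR unadjusted p = 0.0413, adjusted p = 0.682).

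**Figure D3:**
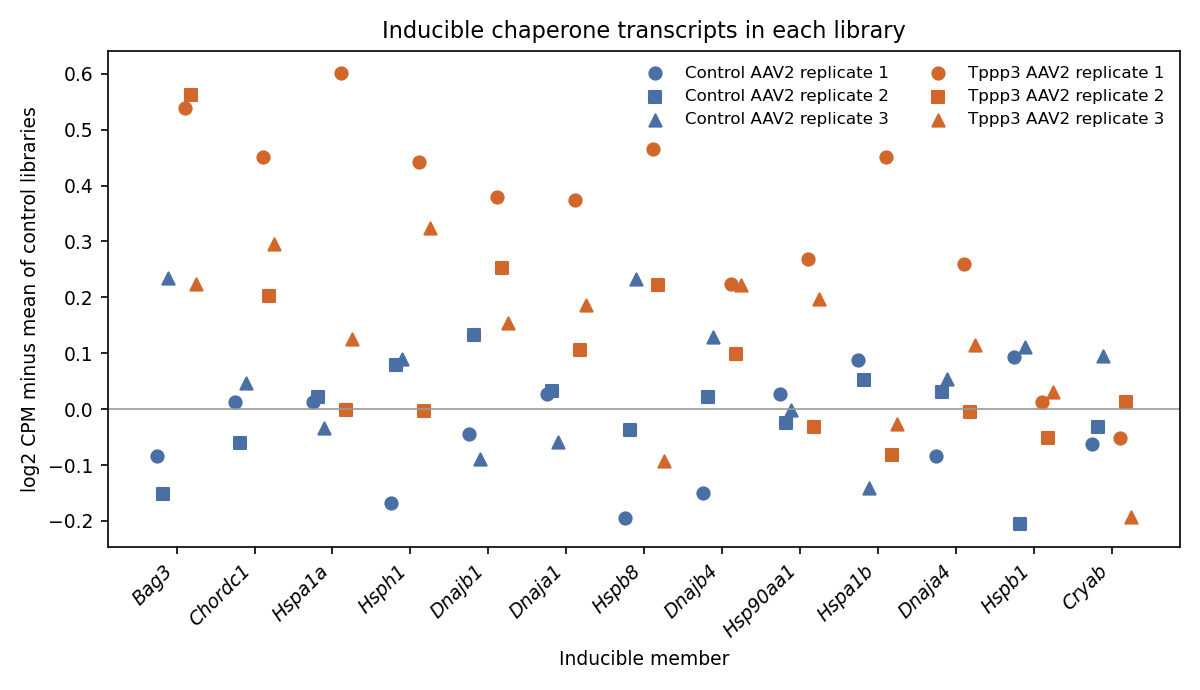
Log2 CPM minus the mean of the control libraries (y axis) for the 13 inducible members (x axis), with 1 symbol per library; blue, control AAV2; orange, Tppp3 AAV2; circles, squares and triangles, replicates 1, 2 and 3. Tppp3 replicate 1 is the highest library in 10 of the 13 members, and all 3 Tppp3 libraries lie above every control only in Chordc1, Dnajb1 and Dnaja1.

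Heat shock elements were then looked for in the 250 bases before each start in the RefSeq promoter table (GRCm38.p6), which held 28 of the 36 members. The letters searched were GAANNTTC and TTCNNGAA, a pair of repeat units that read the same on both strands, and the overlapping longer forms with 3 units, GAANNTTC followed by NNGAA and TTCNNGAA followed by NNTTC. A pair was found in 11 of the 28 members and in 14.5% of all 27025 genes of the table. By class it was found in 7 of 11 inducible members, Hspa1a, Hspa1b, Hspb1, Hsph1, Dnaja1, Dnaja4 and Dnajb4, in 3 of 12 constitutive members, Hspd1, Hspe1 and Dnajb6, and in 1 of 5 others, Fkbp4. The form with 3 units was found in Hspd1, Hspe1 and Dnajb6, all classed as constitutive, and in 0.514% of all genes. Only the exact letters counted as a match, so elements with a differing base were not found by this search. Neither form was found before a start of Chordc1, Dnajb1, Bag3 or Hspb8. For Chordc1 the searched window reached into annotated exon sequence of GENCODE M21, and 108 of its 250 bases lay upstream of that. Shown here are 30 bases around a match in each other member that held one (Hspb1 and Dnaja4 each held 2 separate matches, of which 1 is shown), Hspd1 sharing that of Hspe1, with matched letters in capitals, from chr5:135887791-135887820 (plus strand) for Hspb1, chr5:149636351-149636380 (minus) for Hsph1, chr4:40722333-40722362 (plus) for Dnaja1, chr9:54699458-54699487 (plus) for Dnaja4, chr3:152193846-152193875 (minus) for Dnajb4, chr1:55088053-55088082 (plus) for Hspe1, chr5:29735843-29735872 (plus) for Dnajb6 and chr6:128438789-128438818 (minus) for Fkbp4.
Hspb1: cttcaacaagaGAAGTTTCcagatgggggc
Hsph1: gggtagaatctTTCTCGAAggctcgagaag
Dnaja1: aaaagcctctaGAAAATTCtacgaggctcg
Dnaja4: ggaacctccgcGAACGTTCtgggcctatgt
Dnajb4: gttcgttcgttcgctgTTCTAGAAagtaca
Hspe1: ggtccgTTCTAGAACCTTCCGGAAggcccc
Dnajb6: cagctccgaGAATCTTCCGGAAcgctagac
Fkbp4: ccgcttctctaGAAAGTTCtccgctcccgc

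Members with and without these letters lay at both ends of the fold changes. Hsph1 and Dnaja1, with log2 fold changes of 0.26 and 0.23, held a pair, and Cryab was not in the table. Chordc1 and Bag3, with log2 fold changes of 0.32 and 0.44, held none in the window, whereas Hspb1 and Dnajb6, with -0.0039 and 0.028, held a pair or more. For comparison with the printed elements, 108 bases upstream of Chordc1 at chr9:18292017-18292124 (plus strand), bases 250 to 143 before the start and up to the first annotated exon, read as follows, the bases nearer the start not being shown.
Chordc1: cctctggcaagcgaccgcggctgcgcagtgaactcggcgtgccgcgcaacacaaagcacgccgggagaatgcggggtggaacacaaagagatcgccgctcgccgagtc

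Inducible and constitutive partners were next compared within each library, as ratios of counts that do not depend on scaling between libraries. The ratio of Hspa1a and Hspa1b together to Hspa8 was 0.147, 0.127 and 0.110 in the controls and 0.137, 0.1198 and 0.111 after Tppp3 AAV2. The ratio lay in the same range in both groups, with means of 0.128 ± 0.0186 and 0.123 ± 0.0133 (SD, n = 3 per group). Hsp90aa1 to Hsp90ab1 stood at 2.32, 2.09 and 2.099 in the controls and 2.25, 2.12 and 2.35 after Tppp3 AAV2, also overlapping. Dnaja1 to Dnaja2 stood at 1.17, 1.18 and 1.11 in the controls and 1.35, 1.13 and 1.18 after Tppp3 AAV2, with Tppp3 replicate 1 highest and replicate 2 within the controls. Hsph1 to Hspa4 stood at 0.283, 0.325 and 0.341 in the controls and 0.399, 0.323 and 0.363 after Tppp3 AAV2, where replicates 1 and 3 lay above every control. The differences of the mean log2 ratios were -0.056, 0.046, 0.078 and 0.19 in that order. Two-sided exact permutation tests gave p = 0.8, 0.5, 0.4 and 0.3, and adjusted p of 0.8 for the first ratio and 0.667 for the other 3, where 0.1 is the smallest p that 3 against 3 libraries allow. Summed over all 13 and all 17 members, inducible over constitutive CPM was 0.606, 0.566 and 0.559 in the controls and 0.608, 0.570 and 0.591 after Tppp3 AAV2, with overlapping groups.

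**Figure D4:**
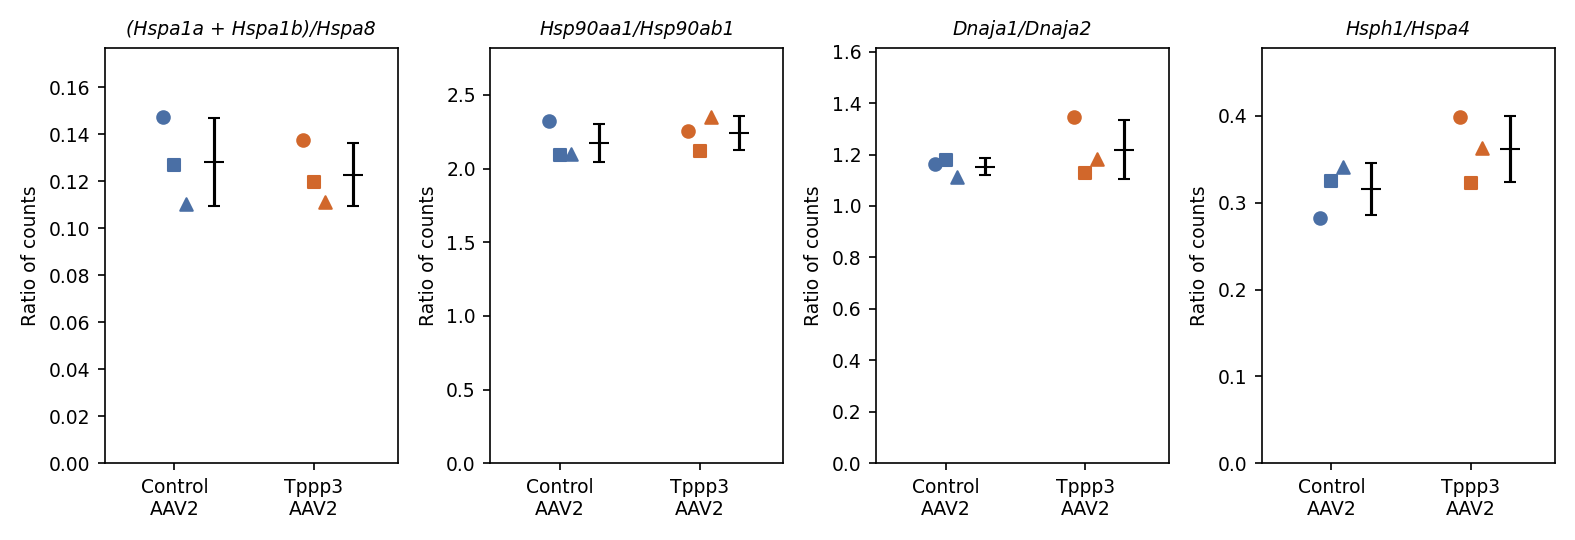
Ratio of counts of an inducible gene to its constitutive partner (y axes, from 0) in each control AAV2 (blue) and Tppp3 AAV2 (orange) library; circles, squares and triangles are replicates 1, 2 and 3, and black bars the mean ± SD of 3 libraries. The groups overlap in all 4 ratios.

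Per transcript length, the levels of the members spanned a wide range in the injured retina, with Hspa8 and the cytosolic HSP90 genes at the top. In the control libraries Hspa8 averaged 505 CPM per kb of its principal GENCODE M21 transcript, Hsp90aa1 429 and Hsp90ab1 258. Hsp90aa1 thus held more counts per kb than Hsp90ab1, although it is the inducible gene of the pair. Part of its count is uncertain, since 36.2% of the windows of Hsp90aa1 are shared with other annotated genes, against 0% of those of Hsp90ab1. Fkbp4 followed at 100.6 and Dnajb6 at 87.3 CPM per kb. Hspa1a and Hspa1b stood at 27.6 and 25.6, Hsph1 at 22.5, Dnajb1 at 19.8, Hspb1 at 9.31, Chordc1 at 9.25, Hspb8 at 4.27 and Bag3, the lowest member, at 2.17 CPM per kb. In each of Hspa8, Hsp90aa1 and Hsp90ab1 the levels of the 6 libraries lay above those of every other member, from 246 CPM per kb upwards. Replicates varied more in the inducible than in the constitutive class: the median biological coefficient of variation in edgeR's fit was 10.02% over inducible and 6.91% over constitutive members, against 10.6% over all tested genes. The classes were not matched by level. Members at a low level were variable in both, with 15.9% for Bag3 (inducible) and 14.3% for Hspa2 (constitutive), and Hspa1a, at a higher level, stood at 14.2%.

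**Figure D5:**
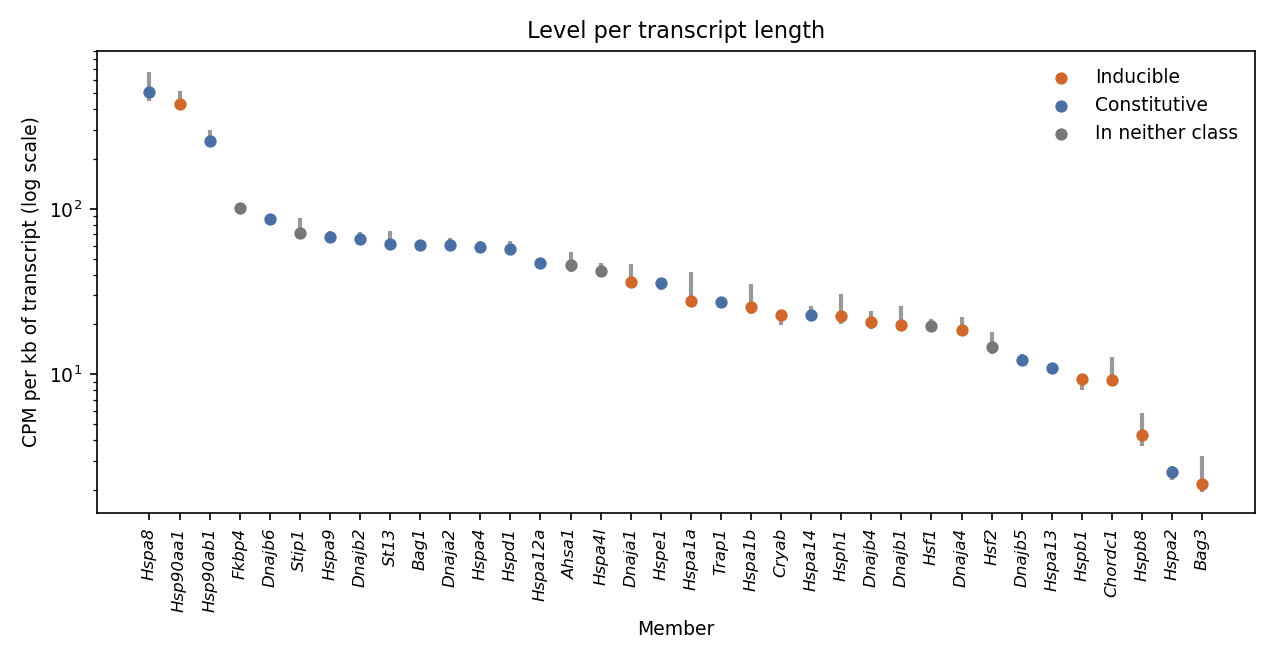
CPM per kb of the principal transcript (y axis, log scale) of the 36 members, ordered by the control mean; points, mean of the 3 control libraries; grey lines, lowest to highest of all 6 libraries. Hspa8, Hsp90aa1 and Hsp90ab1 stand above the rest, and the inducible members other than Hsp90aa1 lie between 36.1 (Dnaja1) and 2.17 (Bag3).

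Other genes of protein folding were taken from 8 lists, which named 73 genes, of which 68 were tested. None passed in edgeR at an adjusted p under 0.05 in either direction. At an unadjusted p under 0.05, 3 of the 68 were higher and 3 lower, near the 3.67% and 3.55% of all tested genes. Their median log2 fold change was 0.013, near that of all genes. Chaperones of the endoplasmic reticulum were positive in 10 of 11, with a median of 0.089, and subunits of the cytosolic chaperonin TRiC in 5 of 8, with a median of 0.056. Dnajc3, a J protein of the endoplasmic reticulum, held 53.7, 53.8 and 52.3 CPM in the controls and 64.5, 58.9 and 63.6 after Tppp3 AAV2, without overlap (log2 fold change 0.23 ± 0.061, edgeR unadjusted p = 0.00327). The HSP90 cochaperone gene Ptges3 and Hspa5, the HSP70 of the endoplasmic reticulum, had log2 fold changes of 0.18 and 0.31 (edgeR adjusted p = 0.648 and 0.673). The groups did not overlap in Ptges3 but did in Hspa5, where Tppp3 replicate 2 lay inside the control range. On the other side were the HSP70 exchange factor gene Hspbp1 at -0.23 and Stub1, the ubiquitin ligase of chaperone clients also called CHIP, at -0.14. Hspbp1 and Stub1 were lower in all 3 Tppp3 libraries than in any control, as were 7.02% of all tested genes. Their edgeR adjusted p were 0.648 and 0.673. Genes of mitochondrial protein quality control had a median of 0.012, prefoldin subunits of -0.015, other HSP90 cochaperones of 0.024, other HSP70 cochaperones of -0.0093 and the list of other heat shock factors and their targets of -0.060. Of 6 other small heat shock genes only 2 were tested, Cryaa among them.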

How the data were processed

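The authors deposited 1 table of raw counts, with gene symbols in rows and whole-number values that carry no normalization. Per the labels' protocols, RNA was selected with oligo(dT) beads and read in pairs of 150 bases. The submitters' processing notes name the build GRCm39 (mm39). The sources used here do not give the aligner, counter, annotation or strand setting. The labels name 4 control and 3 Tppp3 samples, whereas the treatment protocol gives those numbers the other way round. Columns were matched to sample titles, which gave 6 libraries. The fourth control sample matched no column and was not analysed here. Of the table's columns, 1, named as Tppp3 library 4, matched no sample title and was not used. Whether that column belongs to the fourth control sample was not settled.

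Genes were filtered by expression, scaled by TMM and tested across the whole table in edgeR (glmQLFit with robust estimates, glmQLFTest), and p-values were adjusted by Benjamini-Hochberg (threshold 0.05). CPM are counts relative to the effective library size. The procedure was tested on simulated data. Class medians by library used log2(CPM + 0.5). Same-numbered libraries did not deviate together, with correlations of -0.058, 0.088 and -0.34, so no pairing was assumed. Lengths and shared windows came from GENCODE M21 and promoters from RefSeq, both of GRCm38, another build than that of the counts. The versions were edgeR 4.0.16, DESeq2 1.42.0 and limma 3.58.1 in R 4.3.3. Members, classes and lists were chosen with earlier results of these data known. Inducible members, Hspa8, Hsp90ab1, Dnaja2, Hspa4, Hspd1, Hspe1 and members with an unadjusted p under 0.05 are given in every library, the others by mean and SD, and of other genes the 3 of smallest p in each direction are named, except 1 that is not reported here.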

Additional observations from a re-analysis of the deposited data

How the results depend on the processing

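Over 17 alternatives beside the main fit, 0 of 36 members were called in either direction. Genes called in the whole table numbered 0 higher and 2 lower in the main fit, 2 and 12 with DESeq2's Wald test, 1 and 2 with pigment epithelium markers as a covariate, 0 and 0 with limma's voom or a sex covariate, and 0 and 6 with no low-count filter. With the replicate number as a block they numbered 0 and 1 and the block changed no other call. Leaving out 1 library at a time gave 0 to 2 higher and 0 to 1 lower. Members whose groups did not overlap numbered 8 to 20 higher and 0 to 3 lower in those fits, where 10.8% to 13.9% of all tested genes were higher. The share of all genes that were lower was not counted in those fits, and it was 7.02% with no library left out. The inducible median ranged from 0.082 to 0.23 and the constitutive from 0.035 to 0.090 with single libraries left out, 0.15 with a broader inducible and 0.053 with a narrower constitutive class. The log2 difference of the ratios ranged from -0.16 to 0.050 for the Hspa1a and Hspa1b pair to Hspa8, changing sign without control replicate 1 or Tppp3 replicate 3, from 0.011 to 0.095 for Hsp90aa1 to Hsp90ab1, from 0.0040 to 0.13 for Dnaja1 to Dnaja2 and from 0.11 to 0.27 for Hsph1 to Hspa4. Members near 0 changed sign: Hspa9 to -0.028 and Ahsa1 to -0.029 with the pigment epithelium covariate, Hspb1 to 0.046 with voom and 0.074 after thinning to the smallest total, and Hsf1 to -0.0015 with upper-quartile factors and -0.019 with voom. With single libraries left out, Hspa1b ranged from -0.064 to 0.23, Hspa9 from -0.0093 to 0.075, Hspb1 from -0.11 to 0.051, Dnajb2 from -0.039 to 0.072, Ahsa1 from -0.056 to 0.14, Fkbp4 from -0.0026 to 0.077 and Hsf1 from -0.054 to 0.084. The cause of these changes was not tested. Depth limits Bag3, Hspb1, Hspb8 and Hspa2 most, whose lowest counts in any library were 59 to 100.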
